A study of Mus musculus with 8 samples.

Results

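The genes described here encode splicing factors and proteins of the spliceosome. They were taken by symbol: every gene whose symbol begins with Hnrnp or Snrp, or with Srsf, Sf3a, Sf3b, Prpf or Lsm followed by a digit. This gave 78 of the 21049 genes listed: 11 SR proteins (Srsf), 21 heterogeneous nuclear ribonucleoproteins (hnRNPs), 9 SF3 subunits, 13 Prpf proteins, 11 snRNP proteins and 13 Lsm proteins. Their transcripts were measured by RNA sequencing in 8 samples from mouse: 4 controls, which received saline, and 4 that received alcohol. The labels give liver as the tissue, WT as the genotype, and both AML12, a mouse hepatocyte line, and Hepatocyte for the origin of all 8 samples. The design text speaks of C57BL/6 animals with an alcohol-fed group, and states neither age nor the length or dose of alcohol feeding. Nothing used here says that the samples came from separate animals, so the p-values measure only the spread between these samples.

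Splicing removes introns from transcripts in the nucleus. The spliceosome that does so is built from small nuclear ribonucleoprotein particles (snRNPs), each with a ring of Sm proteins (Snrpb, Snrpd, Snrpe, Snrpf and Snrpg) or, on U6 RNA, a ring of Lsm proteins. SF3 subunits hold the U2 snRNP at the branch point, and most Prpf proteins act in or around the U4/U6.U5 tri-snRNP or drive the rearrangements that start catalysis. SR proteins and hnRNPs bind the transcript itself and set which splice sites are used, SR proteins mostly as activators and hnRNPs often as repressors, and many of them also act in export, stability or translation.

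The library totals recovered from the values were 33872595 to 34789814 reads in control samples and 37132631 to 38407511 reads in alcohol samples, and a tested splicing gene had between 62 and 9938 reads in a library. FPKM, the deposited unit, counts fragments relative to gene length and library total, and the 9228 genes that averaged 1 FPKM or more over the samples were tested. Alcohol replicates 2 and 4 were much more alike than any other pair of replicates (chi-square per gene 7.64, against 38.7 to 154 for the other pairs within a group). They differed by more than counting noise, which does not show whether they came from separate animals, and the labels list them as separate samples. Averaged as 1 sample, they left 3791 genes higher and 1099 lower, with the calls of Srsf7 and Prpf31 lost and Lsm8 called lower. The 7 hepatocyte markers summed to 55362 to 63448 FPKM in control and 51654 to 60907 FPKM in alcohol samples, and no listed marker of any cell type was at 0 in all 8 samples, so transcripts of endothelial, stellate, Kupffer and red blood cells were present beside the labelled hepatocytes.

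With alcohol, 16 of 30 tested SR proteins and hnRNPs rose and 2 fell. Of 23 tested core snRNP and Lsm genes 3 rose and 5 fell, or 6 and 2 with the gene length trend removed. Of the 78 genes, 75 passed the level minimum, 27 rose and 7 fell. The other 3 were below the minimum: the SR protein Srsf12, the histone pre-mRNA protein Lsm11 and the processed pseudogene Hnrnpa1l2-ps2. A gene counts as changed here at a Benjamini-Hochberg adjusted p under 0.05 by limma on log2(FPKM + 1), adjusted over all tested genes. By the same rule 44.2% of all tested genes rose and 13.0% fell, so the share of splicing genes that rose was no larger than that of genes in general. The median log2 change was 0.10 over the 75 genes and 0.24 over all tested genes. The control and alcohol samples did not overlap for 31 of the 75 genes, against 50.2% of all tested genes. In bulk samples, fewer cells of a type and less RNA per cell cannot be told apart.

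**Figure D1:**
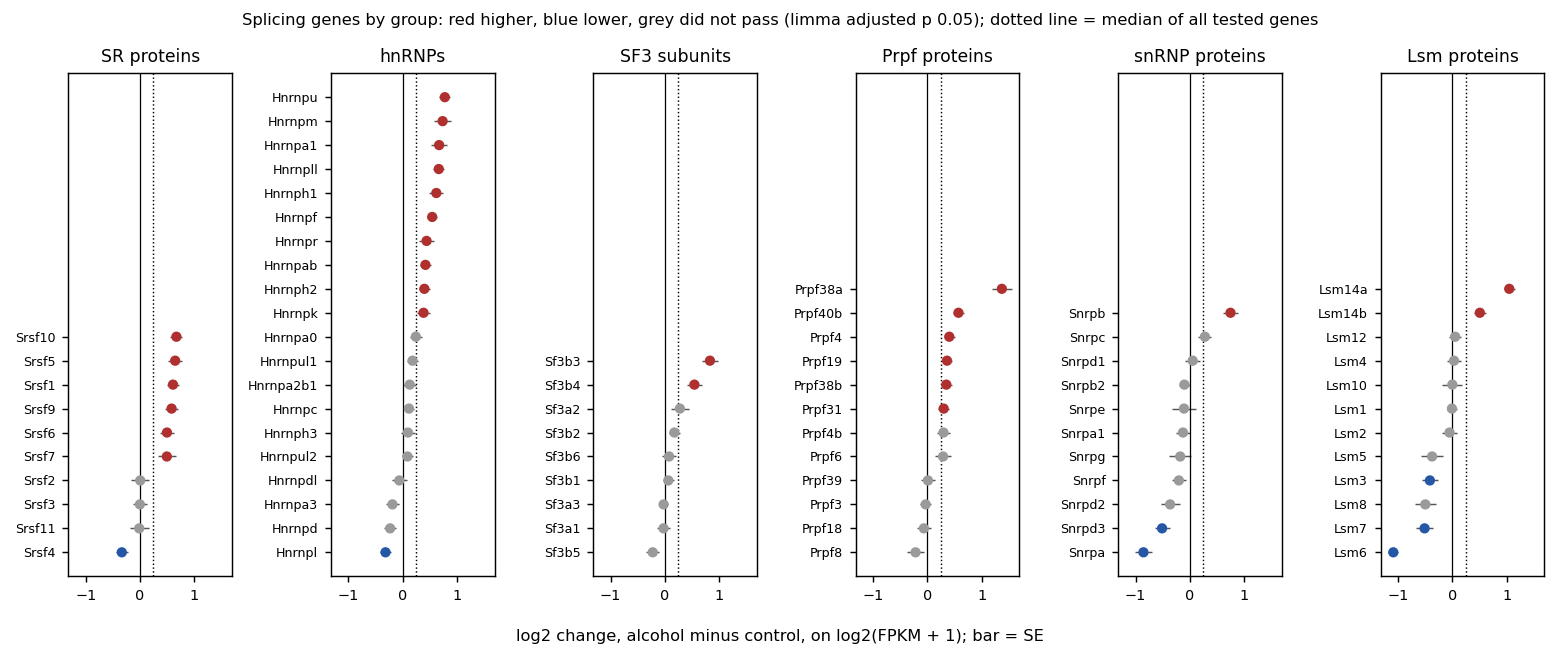
Change of the tested splicing genes with alcohol, by group, with 1 tested gene not shown. Points are log2 changes (alcohol minus control, 4 samples each) on log2(FPKM + 1), bars are standard errors, and the dotted line is the median of all 9228 tested genes at 0.24. SR proteins and hnRNPs lie mostly to the right of zero and snRNP proteins mostly to the left; with the gene length trend removed, the median of the snRNP proteins is above zero, at 0.14.

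The 4 largest changes in either direction belonged to Prpf38a, Lsm6, Lsm14a and Snrpa. Prpf38a, a protein that joins the spliceosome as it becomes active, stood at 3.75, 1.46, 1.63 and 2.04 FPKM in control samples 1 to 4 and at 8.19, 6.61, 6.15 and 7.30 FPKM in alcohol samples 1 to 4. Control replicate 1 was highest among the controls, and every alcohol sample was above it. The log2 change was 1.37 ± 0.19 (SE; limma adjusted p = 0.000177). Lsm6, a subunit of the ring that binds U6 RNA in the nucleus and, with Lsm1, decaying mRNA in the cytoplasm, stood at 7.55, 7.64, 7.16 and 7.19 FPKM in control and 3.32, 3.21, 2.73 and 2.57 FPKM in alcohol samples. The groups were far apart beside their spread, and the log2 change was -1.09 ± 0.09 (SE; limma adjusted p = 1.02e-05).

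Lsm14a carries an Lsm domain but works outside the spliceosome, in cytoplasmic P-bodies where translation is repressed. Its level was 7.30, 6.55, 6.41 and 5.87 FPKM in control and 16.9, 13.4, 13.7 and 14.4 FPKM in alcohol samples. Every alcohol sample was above every control, with a log2 change of 1.05 ± 0.10 (SE; limma adjusted p = 2.44e-05). Snrpa, the U1 snRNP protein that binds a stem-loop of U1 RNA, stood at 10.9, 17.9, 17.2 and 18.7 FPKM in control and 8.10, 8.78, 7.31 and 9.18 FPKM in alcohol samples. Control replicate 1 was the lowest control and still above every alcohol sample. The log2 change of Snrpa was -0.85 ± 0.16 (SE; limma adjusted p = 0.000997). All 4 calls held under every alternative of scaling, filter, model and left-out sample in which the gene was tested (17 for Prpf38a and 18 for the other genes), and with the gene length trend removed the changes were 1.55, -1.20, 0.94 and -0.69 in the same order. Lsm6 has 3 near-identical copies elsewhere in the genome and Snrpa has 2, none of them annotated as coding, and exons of BC024978 lie on the other strand of Snrpa and those of 2310043P16Rik and Gm12764 on that of Lsm14a, so the share of reads from these sources is uncertain.

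The RefSeq promoter windows of these 4 genes, 300 bases around the transcript start on GRCm38.p6, are shown because these genes changed most and in both directions. 5 short motifs were searched on both strands: the ETS factor motif CCGGAAG, the box CCAAT, the palindromic E-box with the letters CACGTG, the cAMP response element with the letters TGACGTCA, and the TATA box with the letters TATAAA. Capitals mark matches, written ATTGG where CCAAT is on the other strand, and the sequences read in the direction of transcription. All 4 genes lie on the minus strand. The windows are chr4:108579287-108579586 for Prpf38a, chr8:78821103-78821402 for Lsm6, chr7:34389656-34389955 for Lsm14a and chr7:27196222-27196521 for Snrpa, which has 2 windows in RefSeq, of which 1 is shown.
Prpf38a: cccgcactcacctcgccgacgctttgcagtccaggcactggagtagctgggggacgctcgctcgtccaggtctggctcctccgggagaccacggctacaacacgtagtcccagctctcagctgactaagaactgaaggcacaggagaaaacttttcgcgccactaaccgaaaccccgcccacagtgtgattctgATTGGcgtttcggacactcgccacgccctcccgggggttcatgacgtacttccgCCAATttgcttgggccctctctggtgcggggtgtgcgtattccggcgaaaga
Lsm6: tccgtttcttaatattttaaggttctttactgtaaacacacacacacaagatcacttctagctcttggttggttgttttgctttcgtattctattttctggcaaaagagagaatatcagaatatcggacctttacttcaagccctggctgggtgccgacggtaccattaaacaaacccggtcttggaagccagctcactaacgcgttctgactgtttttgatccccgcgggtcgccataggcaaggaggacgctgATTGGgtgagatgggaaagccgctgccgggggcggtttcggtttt
Lsm14a: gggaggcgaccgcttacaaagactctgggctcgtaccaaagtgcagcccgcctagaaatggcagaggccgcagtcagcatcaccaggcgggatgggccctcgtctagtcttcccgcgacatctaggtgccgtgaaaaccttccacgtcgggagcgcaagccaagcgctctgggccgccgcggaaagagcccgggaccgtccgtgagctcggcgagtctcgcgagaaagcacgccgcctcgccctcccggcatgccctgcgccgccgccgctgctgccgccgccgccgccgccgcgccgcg
Snrpa: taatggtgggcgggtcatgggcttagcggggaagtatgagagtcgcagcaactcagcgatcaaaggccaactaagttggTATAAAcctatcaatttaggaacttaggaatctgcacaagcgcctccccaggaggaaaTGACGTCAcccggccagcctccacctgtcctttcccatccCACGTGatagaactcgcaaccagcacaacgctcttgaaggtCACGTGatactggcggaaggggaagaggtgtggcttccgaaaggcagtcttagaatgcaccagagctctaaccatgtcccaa
Both Prpf38a, which rose, and Lsm6, which fell, hold a CCAAT match, 2 in Prpf38a and 1 in Lsm6. Lsm14a holds no match to the 5 motifs in this window. Snrpa holds 2 E-box matches, 1 cAMP response element and 1 TATAAA. Among all 32851 promoter windows of the same length, CCAAT is found in 37.4%, CACGTG in 7.15%, TGACGTCA in 1.79% and TATAAA in 13.6%. A match is a description of the letters only.

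Of the 10 tested SR proteins, 6 rose, 1 fell and 3 did not pass, against 44.2% that rose and 13.0% that fell of all tested genes. The median log2 change of the SR proteins was 0.49, against 0.24 for all tested genes. Srsf5, the most abundant member, stood at 42.5, 41.1, 29.1 and 32.9 FPKM in control and 60.8, 53.9, 53.9 and 59.1 FPKM in alcohol samples. The groups did not overlap, and the log2 change was 0.65 ± 0.13 (SE; limma adjusted p = 0.00183). Srsf10, which turns from activator to general repressor when it loses its phosphates, rose from 3.86, 3.59, 3.18 and 3.50 FPKM to 6.83, 6.00, 5.09 and 7.02 FPKM. Its log2 change was 0.67 ± 0.11 (limma adjusted p = 0.000522), again without overlap. Srsf1, the founding SR protein, which also acts in nonsense-mediated decay and translation, rose from 10.8, 9.16, 7.71 and 7.74 FPKM to 14.4, 14.04, 12.4 and 14.8 FPKM. Control replicate 1 was its highest control and lay below the lowest alcohol sample, and the log2 change was 0.61 ± 0.12 (limma adjusted p = 0.00152).

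Srsf9 rose from 13.2, 11.1, 11.5 and 11.03 FPKM to 16.7, 21.3, 14.7 and 19.7 FPKM, with a log2 change of 0.58 ± 0.12 (limma adjusted p = 0.00244). Srsf6 rose from 22.2, 21.3, 17.1 and 22.7 FPKM to 25.5, 31.8, 28.1 and 33.6 FPKM, with a log2 change of 0.49 ± 0.12 (limma adjusted p = 0.00591). The groups did not overlap for either gene, but neither passed after scaling by the median of ratios, where the adjusted p was 0.0527 for Srsf9 and 0.181 for Srsf6. The sixth riser, Srsf7, had overlapping groups, and its adjusted p of 0.0267 went up to as much as 0.0814 with 1 sample left out (without alcohol replicate 1, 2 or 4 or control replicate 1 or 3). Srsf4 went the other way: its control samples stood at 8.31, 9.37, 7.28 and 9.89 FPKM and its alcohol samples at 6.00, 6.75, 7.08 and 6.84 FPKM, a log2 change of -0.34 ± 0.11 (limma adjusted p = 0.0217). This call was lost without alcohol replicate 1 or without control replicate 2 or 4, with adjusted p up to 0.0625. Srsf2, Srsf3 and Srsf11 did not pass, with overlapping groups and a log2 change of -0.02 for Srsf11 and nearer to zero for Srsf2 and Srsf3. Srsf4, Srsf7 and further genes given below outside the naming rule were added after their values were seen, to account for every gene that changed.

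Of the 20 tested hnRNPs, 10 rose (50%), 1 fell (5%) and 9 did not pass, with a median log2 change of 0.32. The share that rose was near the 44.2% of all tested genes, of which 13.0% fell. Hnrnpu, also called scaffold attachment factor A, a large nuclear protein that binds both chromatin and RNA, stood at 9.38, 8.30, 7.60 and 8.68 FPKM in control and 17.1, 14.4, 14.3 and 15.2 FPKM in alcohol samples. The groups did not overlap, and the log2 change was 0.78 ± 0.10 (SE; limma adjusted p = 0.000117). Hnrnpll, known as a splicing regulator of Cd45 in lymphocytes, rose from 6.96, 6.42, 5.27 and 6.37 FPKM to 10.04, 10.8, 10.4 and 10.7 FPKM. The 4 alcohol samples lay close together, and the log2 change was 0.67 ± 0.10 (limma adjusted p = 0.000269). Its paralogue Hnrnpl was the hnRNP that fell, from 15.1, 13.02, 11.6 and 13.4 FPKM to 9.58, 11.4, 9.77 and 11.2 FPKM. The log2 change of Hnrnpl was -0.31 ± 0.11 (limma adjusted p = 0.0268), and the call was lost without alcohol replicate 1 or 3 or control replicate 4, with adjusted p up to 0.0689.

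Hnrnpm, an RNA-binding repressor and activator of exons, rose from 17.7, 12.7, 11.4 and 9.90 FPKM to 21.2, 23.2, 20.1 and 22.7 FPKM. Control replicate 1 was again the control nearest to the alcohol samples, and the log2 change was 0.74 ± 0.15 (SE; limma adjusted p = 0.00202). Hnrnpf, which binds runs of G, rose from 7.69, 7.68, 6.76 and 7.88 FPKM to 12.95, 10.6, 11.2 and 11.04 FPKM, a log2 change of 0.55 ± 0.10 (limma adjusted p = 0.000847), and its relatives Hnrnph1 and Hnrnph2 rose by 0.62 and 0.40. Hnrnpab and Hnrnpk were the most abundant hnRNPs. Hnrnpab stood at 61.1, 60.9, 60.4 and 59.9 FPKM in control and 77.6, 87.05, 70.96 and 91.8 FPKM in alcohol samples, a log2 change of 0.42 ± 0.11 (limma adjusted p = 0.00597). Hnrnpk, a poly(C) binding protein of transcription, splicing and translation, stood at 59.2, 47.1, 46.7 and 43.04 FPKM and 68.4, 62.9, 64.8 and 59.8 FPKM, a log2 change of 0.39 ± 0.11 (limma adjusted p = 0.0145). For both, every alcohol sample was above every control, and both calls were lost after median-of-ratios scaling (adjusted p = 0.353 and 0.465). Hnrnpa1, a frequent antagonist of SR proteins, rose by 0.67 ± 0.14 on the log2 scale (limma adjusted p = 0.00258), and Hnrnpr by 0.44 ± 0.13 with overlapping groups (limma adjusted p = 0.0145). The 9 that did not pass (Hnrnpa0, Hnrnpa2b1, Hnrnpa3, Hnrnpc, Hnrnpd, Hnrnpdl, Hnrnph3, Hnrnpul1 and Hnrnpul2) had log2 changes from -0.23 to 0.24.

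Copies and overlaps add uncertainty to single genes. Hnrnpa3 has 27 near-identical copies elsewhere, 1 of them (Gm6793) annotated as coding, Hnrnpa1 has 8 and Hnrnpf has 6. Among all 78 genes 22 have such copies, and 22 share exon positions with a gene on the other strand, among them Hnrnpu with Cox20, Hnrnpk with Rmi1 and Hnrnpab with Phykpl. On the same strand, 6 of the 78 genes share exon positions with another gene, among them Hnrnpm with March2 and Sf3b3 with Gm22193 and Snord111. Whether the libraries kept strand is not given in the sources used here, so reads of overlapping genes cannot be told apart.

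**Figure D2:**
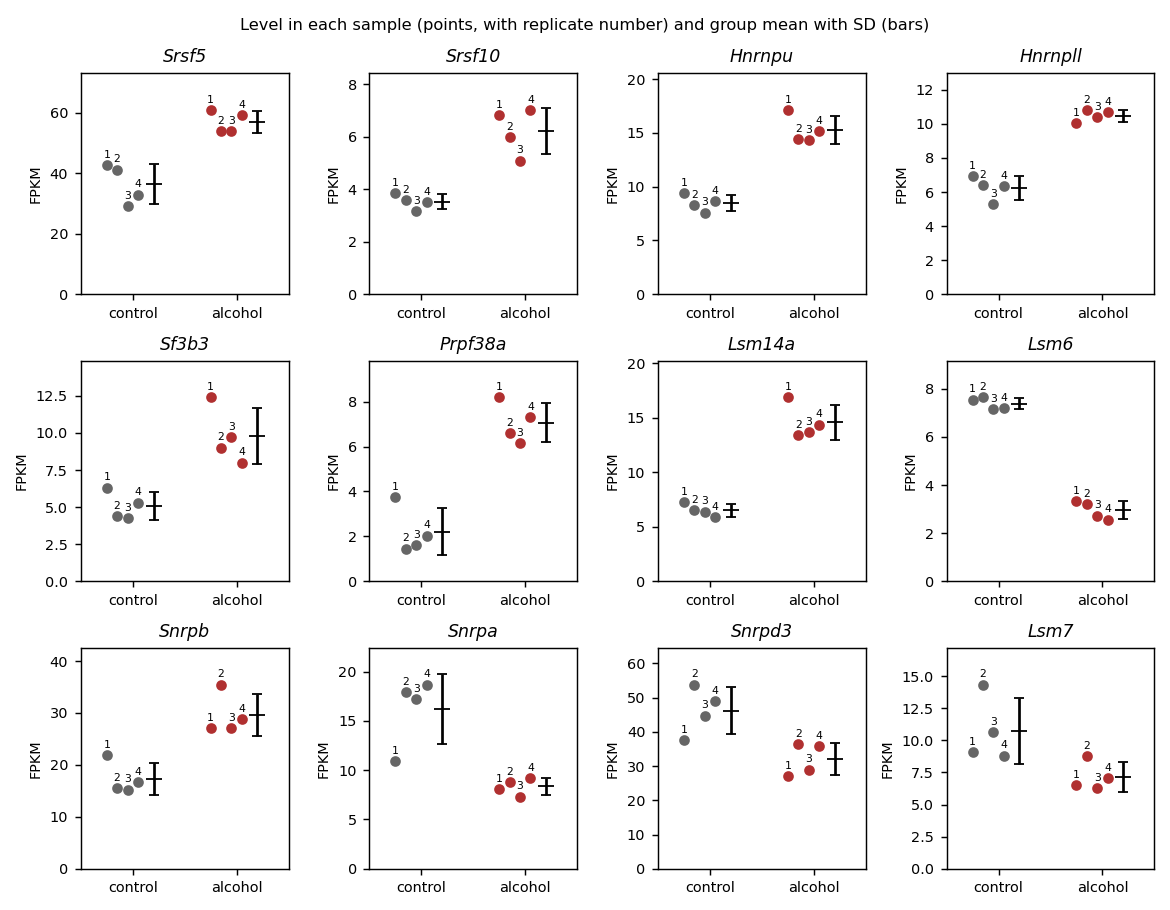
FPKM in each sample for 12 splicing genes, all picked from those called. Among tested genes, the groups do not overlap for 31 of 75 splicing genes and for 50.2% of all genes. Points are single samples with their replicate number, bars are the group mean and SD (n = 4). In all 12 panels the control and alcohol samples do not overlap; Lsm6, Snrpa, Snrpd3 and Lsm7 are lower with alcohol and the other genes higher, and the calls of Snrpd3 and Lsm7 are lost with the gene length trend removed.

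Among the 9 SF3 subunits, 2 rose (22.2%, against 44.2% of all tested genes) and 7 did not pass, with a median log2 change of 0.08. Sf3b3, a scaffold of the complex that holds the branch point, rose from 6.32, 4.38, 4.27 and 5.31 FPKM to 12.4, 9.01, 9.73 and 8.01 FPKM. The groups did not overlap, and the log2 change was 0.83 ± 0.15 (SE; limma adjusted p = 0.000826). Sf3b4, which contacts the transcript beside the branch point, rose from 7.81, 5.95, 7.32 and 9.26 FPKM to 11.7, 9.75, 13.03 and 11.2 FPKM. Its log2 change was 0.54 ± 0.13 (limma adjusted p = 0.00524), and the call was lost after median-of-ratios scaling (adjusted p = 0.125). Exons of Cog4 lie opposite Sf3b3 and exons of Gm17690 opposite Sf3b4. The most abundant subunits did not pass. Sf3b5 stood at 25.4, 32.5, 31.4 and 35.3 FPKM in control and 26.9, 28.4, 23.5 and 26.7 FPKM in alcohol samples (limma adjusted p = 0.121), and Sf3b2 at 30.4, 24.8, 26.1 and 22.8 FPKM and 30.4, 27.96, 30.6 and 28.3 FPKM (adjusted p = 0.184). Sf3b1, the subunit mutated in some blood cancers, had a log2 change of 0.06 ± 0.11, and the 9 subunits had changes ranging from -0.23 to 0.83.

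Of the 13 Prpf proteins, 6 rose and 7 did not pass, with a median log2 change of 0.29. The share that rose, 46.2%, was near the 44.2% of all tested genes. Prpf40b, a relative of the yeast U1 protein that bridges both ends of the intron, rose from 1.42, 1.79, 1.56 and 1.68 FPKM to 2.55, 3.27, 2.79 and 2.91 FPKM. The groups did not overlap, and the log2 change was 0.57 ± 0.09 (SE; limma adjusted p = 0.000531). Prpf4, a U4/U6 protein, rose from 1.75, 1.26, 1.30 and 1.23 FPKM to 2.33, 1.95, 2.30 and 1.98 FPKM, a log2 change of 0.40 ± 0.10 (limma adjusted p = 0.00585). Prpf19, the ubiquitin ligase that gives the Prp19 complex its name, rose from 12.7, 12.6, 14.1 and 12.3 FPKM to 16.1, 18.3, 15.2 and 17.8 FPKM, a log2 change of 0.36 ± 0.10 (limma adjusted p = 0.00856). Neither gene had overlapping groups, and neither passed after median-of-ratios scaling (adjusted p = 0.0639 and 0.532). Prpf38b and the U4/U6 protein Prpf31, whose human gene is mutated in retinitis pigmentosa, rose by 0.35 and 0.30. The Prpf31 call rests on few samples: with 1 sample left out the adjusted p went up to 0.0722, and it was lost without alcohol replicate 1, 2 or 4 or control replicate 3 or 4. After quantile normalization the change of Prpf31 turned to -0.04.

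Prpf8, the protein at the heart of the catalytic centre and the most abundant Prpf gene, did not rise with these. Its level was 22.2, 17.3, 18.7 and 16.9 FPKM in control and 18.4, 13.2, 20.3 and 12.97 FPKM in alcohol samples, a log2 change of -0.22 ± 0.15 (SE; limma adjusted p = 0.248). The groups overlapped, alcohol replicates 1 and 3 standing among the controls, and after removal of the gene length trend Prpf8 was lower with alcohol, at -0.41 (adjusted p = 0.0118). The 5 Prpf proteins of the tri-snRNP (Prpf3, Prpf4, Prpf6, Prpf8 and Prpf31) thus held 2 that rose and 3 that did not pass.

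Of the 11 snRNP proteins, 1 rose (9.1%), 2 fell (18.2%) and 8 did not pass, against 44.2% and 13.0% of all tested genes. Their median log2 change was -0.13. Snrpb, which encodes the Sm ring proteins B and B', rose from 21.9, 15.5, 15.2 and 16.6 FPKM to 27.1, 35.5, 27.1 and 28.8 FPKM. Every alcohol sample was above every control, and the log2 change was 0.75 ± 0.14 (SE; limma adjusted p = 0.000973). Its neighbour in the ring, Snrpd3, fell from 37.5, 53.8, 44.7 and 48.9 FPKM to 27.2, 36.4, 28.9 and 35.9 FPKM, a log2 change of -0.51 ± 0.14 (limma adjusted p = 0.00948). Snrpd2 stood at 34.2, 52.6, 41.1 and 45.7 FPKM in control and 27.2, 44.1, 27.5 and 36.3 FPKM in alcohol samples and did not pass (adjusted p = 0.098). Both Sm genes were lowest in alcohol replicates 1 and 3. The 7 Sm ring genes, whose products assemble in equal number, had log2 changes from -0.51 for Snrpd3 to 0.75 for Snrpb, with a median of -0.18, and with the gene length trend removed the median was 0.33 and the change of Snrpd3 was -0.12 (adjusted p = 0.179). Exons of Gucd1 lie on the other strand of Snrpd3. Among the proteins of single particles, Snrpa fell as described, and Snrpc of U1 and Snrpa1 and Snrpb2 of U2 had log2 changes of 0.28, -0.13 and -0.10 and did not pass.

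Of the 12 tested Lsm proteins, 2 rose (16.7%), 3 fell (25%) and 7 did not pass, against 44.2% and 13.0% of all tested genes. Their median log2 change was -0.03. The 8 genes Lsm1 to Lsm8, whose products form the rings on U6 RNA and on decaying mRNA, had a median of -0.39, or -0.06 with the gene length trend removed, and Lsm3, Lsm6 and Lsm7 fell. Lsm7 fell from 9.10, 14.3, 10.7 and 8.81 FPKM to 6.50, 8.80, 6.26 and 7.06 FPKM, a log2 change of -0.51 ± 0.15 (SE; limma adjusted p = 0.0155). Its lowest control was just above its highest alcohol sample. Lsm3 had a log2 change of -0.41 ± 0.14 (limma adjusted p = 0.0282) with overlapping groups, and its call was lost without alcohol replicate 1 or 3 or control replicate 2, 3 or 4, with adjusted p up to 0.0821. With the gene length trend removed the changes were -0.10 for Lsm7 and -0.01 for Lsm3 and neither passed, so Lsm6 was the ring gene still called. The rest of the ring genes ranged from -0.50 for Lsm8 to 0.03 for Lsm4.

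Lsm14b, a paralogue of Lsm14a that likewise acts on mRNA in the cytoplasm, rose from 6.25, 4.51, 4.95 and 4.94 FPKM to 8.68, 6.97, 8.38 and 6.93 FPKM. Its groups did not overlap, and the log2 change was 0.51 ± 0.12 (SE; limma adjusted p = 0.00379), with an adjusted p of 0.0697 after median-of-ratios scaling. Both Lsm genes that rose are therefore outside the U6 ring. Lsm12, a further gene with an Lsm domain, stood at 9.88, 10.1, 12.7 and 12.4 FPKM in control and 12.3, 11.8, 10.2 and 12.5 FPKM in alcohol samples and did not pass (adjusted p = 0.713). Lsm11, below the level minimum, stood at 0.192, 0.185, 0.335 and 0.242 FPKM in control and 0.291, 0.764, 0.613 and 0.501 FPKM in alcohol samples, from 41 to 183 reads in a library. In the fit with no minimum it was called higher, at 0.31 ± 0.09 (SE; limma adjusted p = 0.0397), with overlapping groups. Lsm10, a ring subunit of the U7 snRNP that processes histone transcripts, had a mean of 9.82 ± 1.58 FPKM (SD, n = 4) in control and 9.997 ± 2.61 FPKM in alcohol samples.

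Set side by side, the 30 tested regulators (SR proteins and hnRNPs) held 16 genes that rose (53.3%) and 2 that fell (6.7%). The 23 tested core genes (snRNP and Lsm proteins, taken by symbol) held 3 that rose (13.0%) and 5 that fell (21.7%). Of all tested genes 44.2% rose and 13.0% fell. The core genes that rose were Snrpb and, acting outside the spliceosome, Lsm14a and Lsm14b. The median log2 change was 0.39 for the regulators and -0.11 for the core, against 0.24 for all tested genes. The 22 SF3 and Prpf genes lay between, with 8 that rose, 14 that did not pass and a median of 0.22. In each sample the mean log2(FPKM + 1) of the core was subtracted from that of the regulators. This difference was 0.16, -0.16, -0.21 and -0.08 in control samples 1 to 4 and 0.46, 0.21, 0.38 and 0.32 in alcohol samples 1 to 4. The alcohol samples were all above the controls, and control replicate 1 was the control nearest to them. The mean was -0.07 ± 0.16 (SD, n = 4) in control and 0.34 ± 0.11 in alcohol samples, a change of 0.41, made up of a change of 0.30 in the regulators and of -0.12 in the core.

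Gene length differed between these classes and moved with the result. The lengths implied by the FPKM values had a median of 4262 bases for the regulators, 1133 bases for the core and 3166 bases for all tested genes. Over all tested genes, the median log2 change climbed from -0.06 in the shortest of 5 length classes (105 to 1647 bases) through 0.16, 0.26 and 0.33 to 0.40 in the longest (5712 to 51763 bases), and the share that rose from 21.2% to 61.5%. The shortest class held 17 of the 23 core genes and 2 of the regulators. Those 17 had a median log2 change of -0.18. Of them 1 rose and 4 fell, against 21.2% and 26.4% of all tested genes of the class. The pair of regulators there (Srsf5 and Srsf9) both rose. In the class of 3767 to 5711 bases the 8 regulators, of which 1 rose and 2 fell, had a median of 0.03. All tested genes of that class had a median of 0.33, and 53.8% of them rose and 7.2% fell. Its 3 core genes, Lsm6, Lsm1 and Lsm14a, had log2 changes of -1.09, -0.01 and 1.05. They are too few and too far apart for their median of -0.01 to show whether a gap was present. The class of 1648 to 2615 bases held 6 regulators with a median of 0.46 and 2 core genes with a median of 0.04. Of these, 5 regulators and 0 core genes rose, against 38.1% of all tested genes of the class. The class of 2616 to 3766 bases held 6 regulators with a median of 0.32 and 1 core gene, at 0.51. Here 3 regulators and the core gene rose, against 46.6% of all tested genes. The longest class held no core gene, and its 8 regulators had a median of 0.49, with 5 that rose. The median deviation of the shortest class minus that of the longest was -0.09, 0.37, 0.32 and 0.33 in the controls and -0.44, -0.01, -0.44 and -0.05 in the alcohol samples, so control replicate 1 and alcohol replicates 1 and 3 stood lowest within their groups.

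When the trend with gene length was taken out of each sample, 15 regulators rose and 3 fell, and 6 core genes rose and 2 fell, against 44.5% and 12.4% of all tested genes. The median log2 change was then 0.28 for the regulators, 0.11 for the core and 0.22 for all tested genes, so the direction of the core median flipped. The calls of Hnrnpr, Prpf19, Prpf38b, Snrpd3, Lsm3 and Lsm7 were lost, Sf3a2, Sf3b6, Snrpc, Snrpd1 and Snrpg were called higher, and Hnrnpd and Prpf8 were called lower. The difference between regulators and core was 0.08, 0.10, -0.03 and 0.14 in control samples and 0.17, 0.21, 0.09 and 0.29 in alcohol samples, which overlapped, and its change shrank from 0.41 to 0.11. The source of the length trend was not tested.

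**Figure D3:**
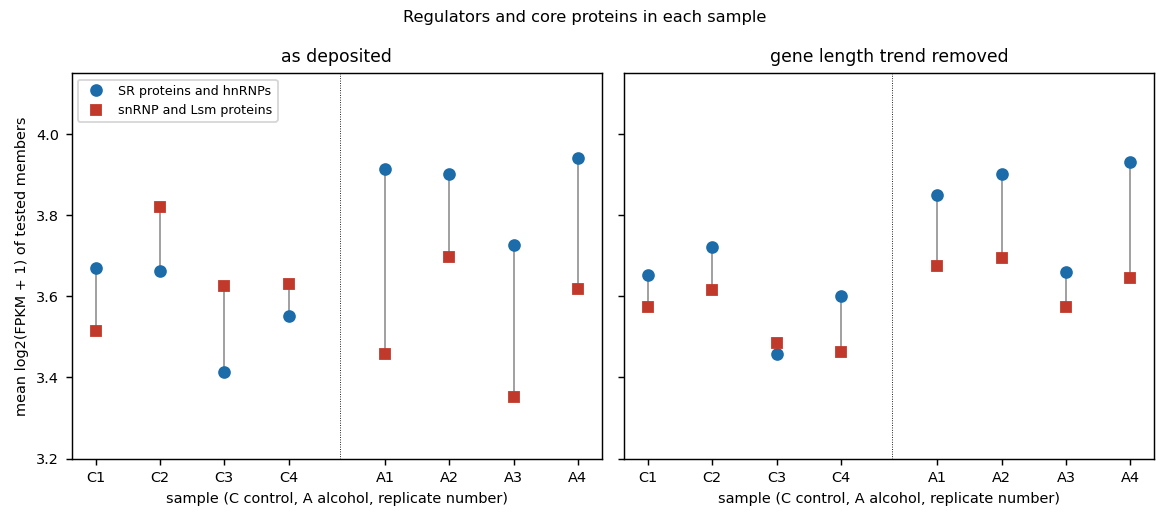
Mean log2(FPKM + 1) of 30 regulators (circles) and 23 core genes (squares) in each sample, from the deposited values (left) and with the gene length trend removed (right). The vertical lines are the differences; left, the change between groups is 0.41 and the groups do not overlap, and right it is 0.11 and they do.

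**Figure D4:**
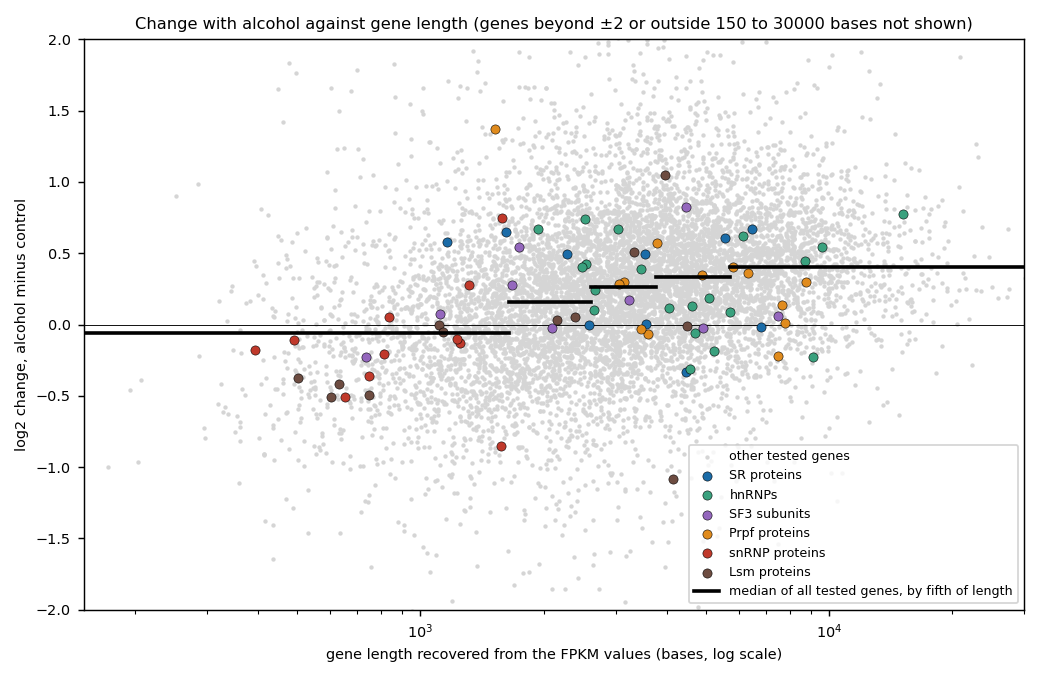
Log2 change with alcohol against gene length for the 9228 tested genes (grey; a few outside the axes) and the 75 splicing genes (coloured by group). Black bars are medians in 5 classes of length with equal gene numbers, from -0.06 to 0.40; Lsm6, at 4147 bases, lies far below genes of its length and Prpf38a, at 1519 bases, far above.

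The scale of the libraries also bears on these counts. FPKM relates each gene to the library total, and scaling by the median of ratios moved the median log2 change of all tested genes from 0.24 to -0.0027, with 25.9% higher and 26.5% lower. Relative to that typical gene, 9 regulators were higher and 4 lower, 2 core genes were higher and 11 lower, and 3 SF3 and Prpf genes were higher and 4 lower. Beside the losses given above, Srsf7, Hnrnph2, Hnrnpr, Prpf31 and Prpf38b were no longer called higher. Hnrnpa3, Hnrnpd, Sf3a3, Sf3b5, Prpf8, Prpf18, Snrpa1, Snrpb2, Snrpd2, Snrpf, Lsm5 and Lsm8 were called lower there. The change in the difference between regulators and core stayed at 0.41, since a scaling factor moves both nearly alike. Of the 34 genes called, 14 kept their call in every alternative in which they were tested: Srsf1, Srsf5, Srsf10, Hnrnpa1, Hnrnpf, Hnrnpll, Hnrnpm, Hnrnpu, Sf3b3, Prpf38a, Snrpb and Lsm14a, which rose, and Lsm6 and Snrpa, which fell. No such count is given here for all tested genes, so it does not show whether these calls were steadier than those of genes in general. With 1 sample left out, 9 genes that had not passed did so in at least 1 fit. Sf3b5, Sf3b2, Hnrnpd and Prpf6 passed without control replicate 1, Snrpd2 and Lsm8 without it or without alcohol replicate 2, Snrpc without control replicate 3, Sf3a2 without control replicate 4 and Hnrnpa0 without alcohol replicate 3. The lowest adjusted p of each gene in these fits lay between 0.0167 and 0.0407.

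Further genes of the splicing pathway were read from 10 lists. Of 7 tested kinases of SR proteins, 2 rose: Srpk1 by 0.70 (limma adjusted p = 0.000934) and Dyrk1a by 0.57 on the log2 scale. Of 19 SR-related proteins 11 rose, led by Rnps1, an exon junction protein that activates splicing, at 1.02 (limma adjusted p = 3.38e-05), and the exon activator Tra2b at 0.77. Of 28 other RNA-binding regulators 18 rose and 1 fell, with Mbnl2, a muscleblind protein, at 1.26 (limma adjusted p = 2.78e-05) and Ptbp2, a polypyrimidine tract binding protein best known from neurons, at 1.02. Both of these lists had a larger share of risers than the 44.2% of all tested genes, which was not tested. With the gene length trend removed 9 SR-related genes rose and 2 fell, a share of risers close to the 44.5% of all tested genes, and 16 of the other RNA-binding regulators rose and 2 fell. The exon junction and decay list also stood above it, with 7 of 13 higher, among them the decay factor Smg5 at 1.02 and the junction core protein Casc3 at 0.76.

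With the deposited values, the lists of general spliceosome proteins were nearer to the background or below it. In splice site recognition 4 of 13 rose, among them the branch point binding protein Sf1 at 0.55 and Rbm17 at 0.50. Of 16 proteins of U5 and the tri-snRNP 5 rose and 2 fell, with the U4 RNA binding protein Snu13 at 0.53 and Zmat2 at -0.69 (limma adjusted p = 0.000328). The Prp19 complex had 6 of 15 higher and 2 lower, with Snw1 at 0.74 and Bcas2 at 0.56. Of 11 helicases and late factors 3 rose, among them Slu7, which acts in choosing the downstream splice site, at 0.96 (limma adjusted p = 2.02e-05) and the helicase Dhx15, which takes spent spliceosomes apart, at 0.93. Of 14 factors of snRNP assembly 6 rose, among them Smn1, the survival motor neuron gene, at 0.92 (limma adjusted p = 0.000198) and Wdr77, a subunit of the enzyme that methylates Sm proteins, at 0.75. With the gene length trend removed 8 of these 14 rose and 0 fell, a larger share of risers than the 44.5% of all tested genes. In that fit 5 rose and 1 fell in splice site recognition, and 5 and 2 among U5 and tri-snRNP proteins. The Prp19 complex then had 7 higher and 2 lower, and the helicases and late factors 3 and 1. Of 7 proteins of the minor spliceosome 2 fell, Snrnp48 at -0.38 and Zcrb1 at -0.35, both bound to U11 and U12, and Zcrb1 was no longer called with the length trend removed (adjusted p = 0.704).

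**Figure D5:**
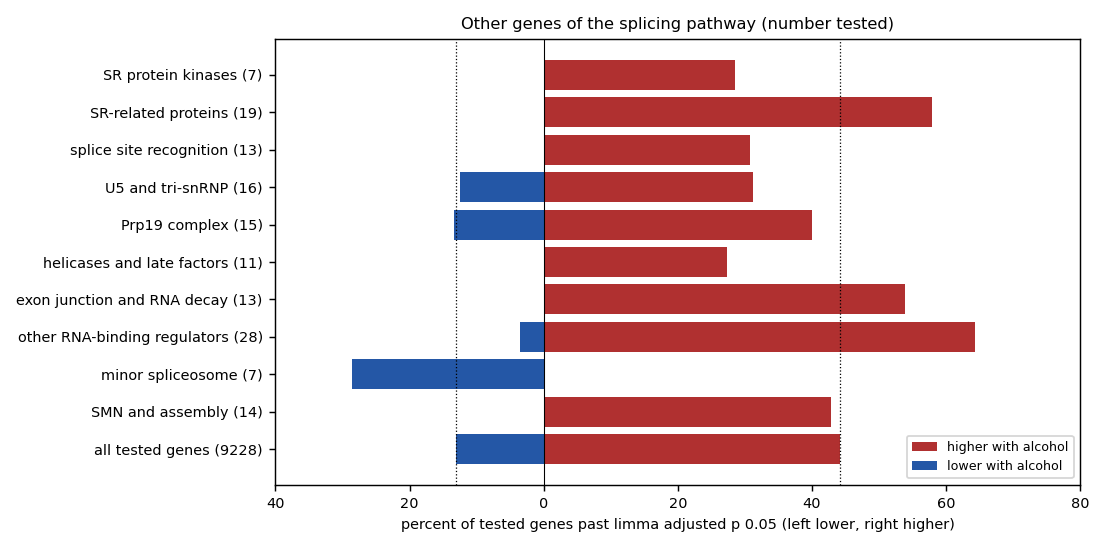
Percent of tested genes past the limma threshold in 10 further lists of the splicing pathway and in all 9228 tested genes, higher with alcohol to the right and lower to the left. The dotted lines are the shares of all tested genes, 44.2% and 13.0%; other RNA-binding regulators and SR-related proteins lie above the first, and most lists of general spliceosome proteins lie below it.

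Features that the symbols do not define differed between the groups as well. Many SR genes make transcripts with a premature stop that are cleared by nonsense-mediated decay, through which their proteins limit their own level. In GENCODE M21 such a transcript was annotated for 9 of 11 SR genes, 10 of 20 coding hnRNP genes (the pseudogene left out), 7 of 13 Prpf genes, 4 of 11 snRNP genes, 4 of 13 Lsm genes and 1 of 9 SF3 genes, against 28.6% of tested genes. Values per gene sum over these transcripts, so a change in gene level need not be one in coding transcript. The median number of annotated transcripts was 7 for SR, 8 for hnRNP and 8 for Prpf genes. It was 5 for snRNP, 5 for Lsm and 4 for SF3 genes, against 5 for all tested genes. The part of this number in the shares was not tested. Promoter windows were found for 67 of the 78 genes, 86 windows in all. CCGGAAG was in 7 of 8 SF3 windows, 6 of 14 SR windows, 4 of 10 snRNP windows, 4 of 14 Prpf windows, 4 of 28 hnRNP windows and 1 of 12 Lsm windows, against 19.0% of windows of tested genes and 8.86% of all windows. CCAAT was in 18 of 28 hnRNP windows, 8 of 14 Prpf windows, 5 of 12 Lsm windows, 3 of 8 SF3 windows, 3 of 10 snRNP windows and 4 of 14 SR windows. It was in 37.9% of windows of tested genes. Some genes have several windows, and these shares were not tested.

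Markers of other cell types moved with alcohol in the same samples. All 7 endothelial markers rose, their summed level going from 14.3 to 23.8 FPKM in control samples to 60.1 to 73.7 FPKM in alcohol samples. Of 7 tested stellate cell markers 3 rose and 2 fell, with sums of 42.3 to 72.3 FPKM and 100.1 to 145 FPKM. The 7 tested Kupffer cell markers did not pass limma's adjusted threshold (1 at an unadjusted p under 0.05), with sums of 50.1 to 154 FPKM and 63.3 to 105 FPKM. Of the 5 tested red cell markers 1 fell. Of the 7 hepatocyte markers, whose sums are given above, 2 rose and 2 fell. Lymphocyte markers summed to at most 3.94 FPKM in control and 1.96 FPKM in alcohol samples. The part of these cells in the changes of the splicing genes was not tested.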

How the data were processed

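The authors deposited FPKM values, 1 column per sample for 21049 gene symbols, and all columns were used. Per the labels' protocols, RNA came from a column kit and libraries from a SMARTER kit for mRNA. The submitters' processing notes name GRCm38 and mm10. For the aligner, counter, annotation and strand the sources used here give nothing. Because FPKM divides by the library total, abundant transcripts move the values of the rest.

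Library totals, gene lengths and reads were worked back from the FPKM (whole reads for 21039 of 21049 genes, 99.95%, within 1e-05 reads). They served for depth and length, not for a count test. The comparison used limma (version 3.58.1, R 4.3.3) on log2 of FPKM plus a pseudocount of 1, a scale that understates changes of low genes. Genes averaging under 1 FPKM were left out. The model had a group term and a variance trend. Tests were 2-sided, with the Benjamini-Hochberg method over all 9228 genes and a threshold of 0.05. A run of the fit on simulated data had few changed genes, as many up as down. It does not show how the fit behaves with as many changes as here. For the length alternative, a smooth trend of each sample's deviations from the gene means on log length was subtracted. Copies are transcripts elsewhere of at least 95% identity over 200 bases or more (BLAST 2.17.0). Annotation is GENCODE M21 on GRCm38, matched by symbol for all 78 genes.

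The genes, lists, markers and rules were chosen with earlier results of these data known. In each of the 6 groups, values in every sample are given for the 4 changed genes of smallest p and the 2 most abundant genes. Each other list names its 2 changed genes of smallest p. The marker lists covered hepatocytes, Kupffer cells, monocytes and neutrophils, endothelial, stellate and red cells, cholangiocytes, lymphocytes and proliferating cells. The 2 tested monocyte and neutrophil markers did not pass. All 8 listed markers of these cells summed to 3.26 to 5.38 FPKM in control and 1.69 to 32.9 FPKM in alcohol samples. The 1 tested cholangiocyte marker did not pass limma's adjusted threshold (unadjusted p under 0.05), and the proliferation markers were below the minimum. Alternatives were other scalings, minimums and pseudocounts, a length correction, a replicate block, no variance trend and each sample left out. Averaging alcohol replicates 2 and 4 was added after seeing the data. For 1 gene the single values are not reported here.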

Additional observations from a re-analysis of the deposited data

Results flagged for a closer look

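Prpf4 in control replicate 1 stood at 1.752 FPKM, with the nearest other control at 1.296 FPKM. That gap is 0.875 of the range of the control group, above Dixon's critical value for 4 samples. It was the only such value among 60 groups of samples checked, and chance gives about 1 in 20. Without control replicate 1 the call of Prpf4 held.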

How the results depend on the processing

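With median-of-ratios scaling 2386 of all tested genes were higher and 2446 lower, 9 regulators were higher and 4 lower, 11 core genes were lower, and 3 SF3 and Prpf genes were higher and 4 lower. With quantile normalization 2221 genes were higher and 2307 lower, 4 regulators and 11 core genes were lower, and 2 SF3 and Prpf genes were higher and 6 lower. On the TPM scale 0 regulators were lower. With a minimum of 5 FPKM 5205 genes were tested, of which 1981 (38.1%) were higher and 891 (17.1%) lower. Of the 12 SF3 and Prpf genes tested there 3 were higher. With the gene length trend removed 6 core genes were higher and 2 lower, 1 SF3 and Prpf gene was lower, and the change in regulators minus core was 0.1134. Of the 41 genes that had not passed, 34 changed sign in at least 1 alternative, 16 of them with median of ratios and 16 with the length trend removed. Of the 34 called genes only Prpf31 changed sign, with quantile normalization. Among the 29 genes chosen by the naming rule it turned for Sf3b5 (0.1410 with the length trend removed), Sf3b2 (-0.1188 with median of ratios) and Lsm12 (-0.2273 with median of ratios, -0.1989 with quantile normalization). With 1 sample left out Lsm12 ranged from -0.0043 (without control replicate 1) to 0.1119. Leaving out 1 sample gave 0 to 3 lower regulators, with 0 without alcohol replicate 1 or control replicate 4 and 1 without alcohol replicate 3 or control replicate 2, and 0 to 1 lower SF3 and Prpf genes, with 1 without control replicate 1. The causes were not tested.

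Samples that share a replicate number did not all deviate together (r = 0.35, 0.22, 0.07 and 0.28 for numbers 1 to 4), so the number does not show a pairing. The fit with the replicate block gave 4307 genes higher and 1380 lower, and 8 lower core genes in place of 5, with Snrpd2 (adjusted p = 0.0107), Lsm5 and Lsm8 added. Of the 34 called genes, 25 of 27 risers and 4 of 7 that fell kept their call with each sample left out, again without a count over all tested genes. Depth does not allow a statement on Srsf12, with at most 1 read in a library. Pooled spread from 4 samples a group leaves changes near the threshold uncertain, as for Srsf7, Prpf31, Srsf4, Hnrnpl and Lsm3.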
